A study of Sus scrofa with 4 samples.

Results

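Transforming growth factor beta (TGF-β) ligands, their receptors and close partners were followed in heart tissues of minipigs with myocardial infarction (MI). Of the 8 genes sought (TGFB1, TGFB2, TGFB3, TGFBR1, TGFBR2, TGFBR3, CTGF and INHBA), 6 were found through the gene symbols that the annotation of the array platform assigns, with 13 probe sets among the 24123 on the array. A probe set is a group of short oligonucleotides on the array that together give 1 signal for a transcript. TGFB2 had 4 probe sets, TGFBR1 had 3, TGFB1 and TGFB3 had 2 each, and TGFBR3 and INHBA had 1 each. Probe sets of the same gene are lettered here from the brightest to the dimmest (TGFB2 a to TGFB2 d, for example), and the plots give the identifier behind each letter. No probe set carried the symbol CTGF or TGFBR2, so these genes were not analysed here.

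The values come from 4 Affymetrix Porcine Genome Arrays, namely border zone and infarct zone tissue of hearts with myoblast transplantation and of control hearts, with 1 array per condition. According to the methods, MI was made in 4-month-old female Bama minipigs by permanent ligation of the left circumflex coronary artery. Male human skeletal myoblasts in the culture medium DMEM were then injected into the border zone, the control treatment group received DMEM alone, and both groups were given the immunosuppressant cyclosporin A. Control tissue is labelled as untreated, with no agent recorded, and was taken here as the control treatment group. If it was instead the MI group of the study, which had neither DMEM nor cyclosporin A, those differences are also part of each ratio to control. The number of minipigs behind an array and the week of sampling are not given in the sources used here. With 1 array for each condition there is no replicate error, and no p-value is given for a difference within a zone or within a treatment.

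TGF-β is secreted in a latent form that is bound to the matrix and is released by integrins, proteases and thrombospondin. The free ligand joins a type II receptor to the type I receptor TGFBR1, which phosphorylates SMAD transcription factors. In the infarcted heart this pathway is known for turning fibroblasts into contractile, matrix-producing myofibroblasts and for ending the first wave of inflammation.

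Signals are MAS 5.0 values in linear units, and the median signal of an array lay between 137 and 142 units. The labels name heart tissue, and all 11 measured cardiomyocyte markers were above the array median on every array. Their summed signal was 228309 and 242960 units on the myoblast arrays (border and infarct zone) against 266210 and 301305 units on the control arrays. The sum was thus higher in the infarct zone than in the border zone in both treatments. Of the 11 markers, 10 were higher in the infarct zone in control and 8 with myoblasts. How far the samples labelled infarct zone had lost cardiomyocytes was not tested. All 6 skeletal muscle markers measured, MYOD1 and MYF5 among them, lay far below the array median on every array, with sums of 85.7 to 155 units. The probes are porcine and the graft is human, and how far these probes detect human transcripts was not tested. The signal ratio of the 3' to the 5' end of the EF1A control, a sign of RNA integrity, was 3.01 and 2.49 on the myoblast arrays and 4.17 and 4.13 on the control arrays (border and infarct zone), while that of GAPDH was between 1.38 and 1.73. The part of these values in the results was not tested.

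Few of these probe sets reached the 2-fold threshold that the study uses. In the border zone, TGFBR3 alone of the 13 was 2-fold or more higher with myoblasts and 0 were lower, where 20.4% of all probe sets on the array were past 2-fold (9.95% higher and 10.4% lower). In the infarct zone, TGFB2 a was higher and TGFB2 d and TGFBR1 b were lower, 3 of the 13 in all, where 20.1% of all probe sets were past 2-fold (10.5% higher and 9.58% lower). The share of probe sets past 2-fold depends on the signal: in the border zone it was 53.3% for a mean signal under 32 units, 19.3% for 32 to 128 units, 6.10% for 128 to 512 units and 3.55% for 512 to 2048 units. In the infarct zone the same shares were 53.5%, 19.0%, 5.82% and 2.92%. Of the 4 values past 2-fold, only that of TGFB2 a came from a probe set above the array median on every array. The counts are near the shares of the whole array or under them. The median log2 ratio of the 13 probe sets was -0.07 (border) and -0.20 (infarct), against 0.00 and 0.01 over all probe sets.

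**Figure D1:**
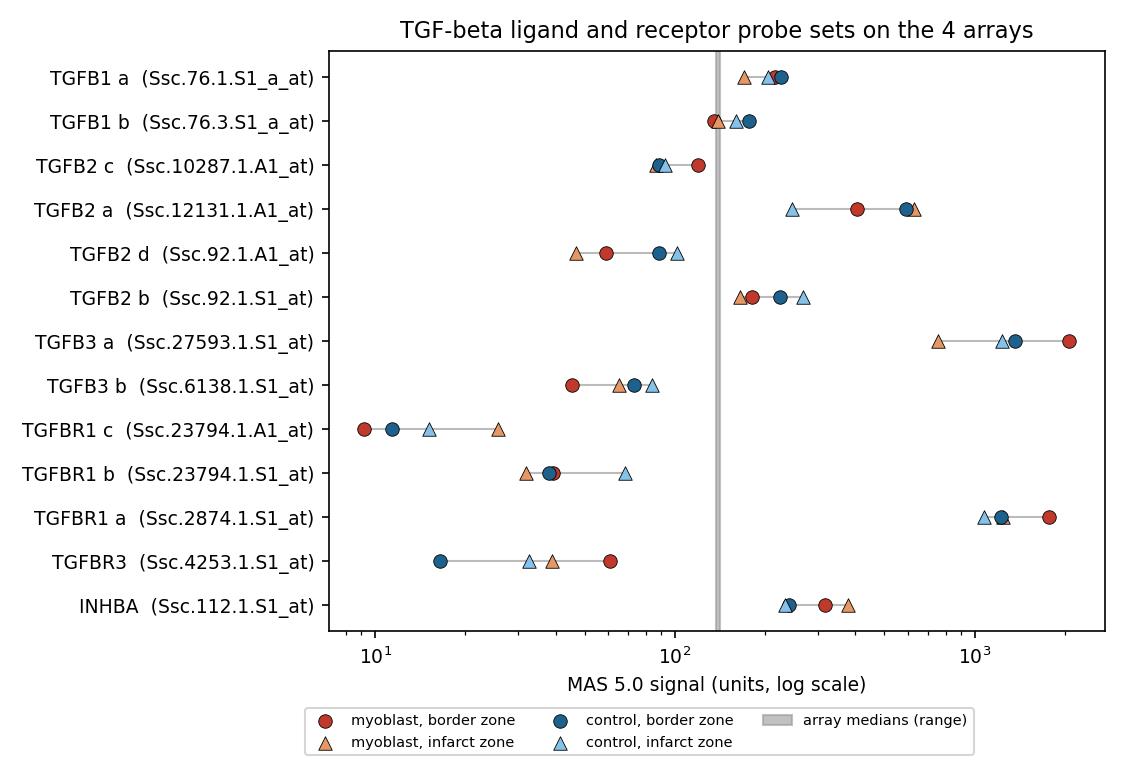
MAS 5.0 signals (x axis, units, log scale) of each of the 13 probe sets (y axis) on the 4 arrays, with border zones as circles, infarct zones as triangles and the range of the array medians as a grey band. TGFB3 a and TGFBR1 a are the brightest, and the myoblast border array has their highest signals, 2073 and 1773 units.

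TGFB3 differed from control in opposite directions by zone on its brighter probe set. This ligand, which shares its receptors with TGFB1, had on its brighter probe set, TGFB3 a, a signal of 2073 units in the border zone with myoblasts and 1369 units in the border zone of control. In the infarct zone the same probe set gave 753 units with myoblasts and 1233 units in control. The myoblast arrays thus lay on opposite sides of a pair of similar control arrays, and the myoblast border array was the highest of the 4 and the myoblast infarct array the lowest. Myoblast over control was 1.51 times in the border zone and 0.610 times in the infarct zone. At this brightness (512 to 2048 units), 14.4% of all probe sets (border) and 12.3% (infarct) were 1.5-fold or more apart. The dimmer probe set, TGFB3 b, was below control in each zone. Its signals were 45.4 and 65.0 units with myoblasts against 73.0 and 83.9 units in control (border and infarct zone), all below the array median. Its ratios were 0.621 and 0.775, so the pair of probe sets were on the same side of control in the infarct zone only.

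Among 4558 other genes whose brightest probe set was above the array median on every array, those closest to TGFB3 in their pattern over the 4 arrays were VCAN, IGFBP6 and CRISPLD2. The distances between their centred log2 signals and those of TGFB3 were 0.0759, 0.182 and 0.220. VCAN, the large matrix proteoglycan versican, had ratios of myoblast over control of 1.47 (border) and 0.627 (infarct). IGFBP6, a binding protein of insulin-like growth factors, had 1.60 and 0.706, and CRISPLD2, a secreted protein, had 1.26 and 0.672. These genes were chosen for this likeness out of many, and 4 arrays leave room for many like patterns. The summed signal of the 5 measured fibroblast markers (DCN, LUM, COL1A2, TCF21 and POSTN) had its highest and lowest values on the same arrays as TGFB3, at 66390 and 41216 units in the border and infarct zone with myoblasts against 53361 and 53682 units in control. All 5 were above control in the border zone and 2 of the 5 in the infarct zone. DCN, LUM and POSTN had their lowest signals on the myoblast infarct array, and COL1A2 and TCF21 on the control infarct array. The 5 measured cartilage and bone markers summed to 10676.5 and 3914 units with myoblasts against 4216 and 3960 units in control, with 3 of the 5 above control in the border zone and 2 of the 5 in the infarct zone. Most of the myoblast border sum came from COMP at 7838 units (571 units in the control border zone), while SPP1 and COL2A1 were lower there than in control. The part of both marker lists in the TGFB3 values was not tested, and in whole tissue fewer cells of a type and less RNA per cell cannot be told apart.

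**Figure D2:**
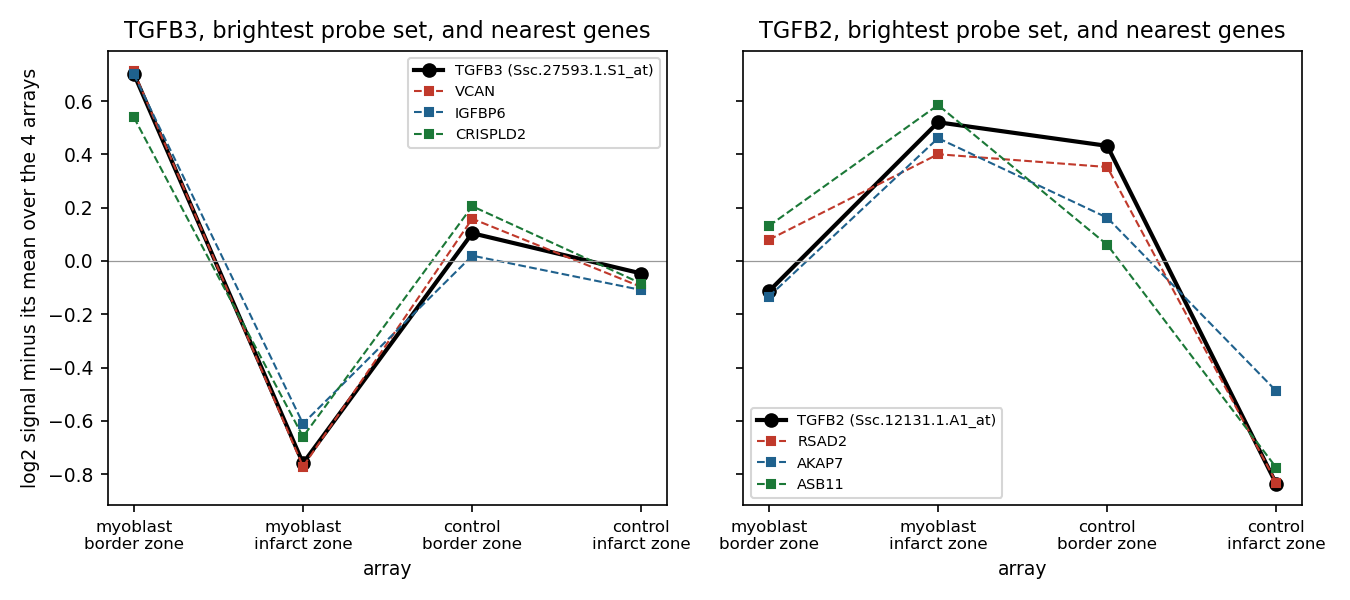
Log2 signal minus its mean over the 4 arrays (y axis) on each array (x axis) for the brightest probe set of TGFB3 (left) and of TGFB2 (right), in black, and for the 3 genes of nearest pattern, in colour, with lines that only join the points of a gene. TGFB3 and VCAN are highest on the myoblast border array and lowest on the myoblast infarct array, while TGFB2 and RSAD2 are lowest on the control infarct array.

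TGFB2, the ligand best known from heart valve development, was read differently by its 4 probe sets. TGFB2 b and TGFB2 d, whose identifiers share a stem, were alike in direction. TGFB2 b gave 181 and 165 units with myoblasts against 224 and 269 units in control (border and infarct zone). TGFB2 d gave 59.1 and 46.9 units against 88.9 and 102 units. Both were lower with myoblasts in each zone. The ratios of TGFB2 b were 0.806 and 0.614, and those of TGFB2 d were 0.665 and 0.461, the latter past 2-fold in the infarct zone at a brightness where 19.0% of probe sets were. TGFB2 c, also dim, gave 119 and 86.3 units with myoblasts against 88.4 and 93.1 units in control, ratios of 1.35 and 0.928. Its differences were thus small and in opposite directions.

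The brightest probe set, TGFB2 a, went against the others. It gave 406 units with myoblasts and 592 units in control in the border zone, a ratio of 0.685. In the infarct zone it gave 629.7 units with myoblasts and 246 units in control, a ratio of 2.56. It was thus lower than control in the border zone, like TGFB2 b and TGFB2 d, and higher than control in the infarct zone, where every other TGFB2 probe set was lower. The 3 genes nearest to its pattern were RSAD2, an antiviral protein induced by interferon, AKAP7, an anchor of protein kinase A, and ASB11, a member of an E3 ubiquitin ligase complex, with distances of 0.241, 0.446 and 0.454. RSAD2 had ratios of 0.828 and 2.35.

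In each zone 1 of the 4 TGFB2 probe sets lay above control and 3 lay below, but the one above was not the same: TGFB2 c in the border zone and TGFB2 a in the infarct zone. The spread between the lowest and the highest log2 ratio of the 4 was 1.02 (border) and 2.48 (infarct). Over the 146 genes with 4 probe sets on this array, the median of this spread was 1.21 and 1.28, and all 4 probe sets lay on the same side of control for 23.3% of genes (border) and 17.8% (infarct). Disagreement in sign between probe sets was therefore common on this array, and the spread of TGFB2 in the infarct zone was above the median. A statement on TGFB2 in the infarct zone depends on which probe set is read.

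TGFB1, a ligand that platelets and macrophages release, differed little between the arrays. TGFB1 a gave 215 and 171 units with myoblasts against 226 and 204 units in control (border and infarct zone). TGFB1 b gave 135 and 139.7 units against 177 and 160.1 units, its myoblast signals being just below the array median. Every ratio was below 1, at 0.952 and 0.837 for TGFB1 a and 0.761 and 0.872 for TGFB1 b, and none reached 1.5-fold. At this brightness (128 to 512 units) 21.3% of all probe sets (border) and 20.8% (infarct) were 1.5-fold or more apart. Platelet markers were dim, with 0 of 3 measured above the array median on every array and sums of 211 to 360 units, highest on the control border array as TGFB1 was. The 6 measured macrophage and monocyte markers went the other way from TGFB1. They summed to 3382 and 4581 units with myoblasts against 2953 and 3223 units in control (border and infarct zone). Of these 6, 4 (border) and 5 (infarct) were above control. The part of both marker lists in the TGFB1 values was not tested.

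INHBA was higher with myoblasts in each zone. It encodes the βA subunit of activin A, a ligand of the same superfamily that signals through SMAD2 and SMAD3. Its probe set gave 318 and 377 units with myoblasts against 240.3 and 234 units in control (border and infarct zone). The ratios were 1.32 and 1.61, under 2-fold. At this brightness (128 to 512 units) 21.3% of all probe sets (border) and 20.8% (infarct) were 1.5-fold or more apart. The same direction in both zones was the more common case, as 39.5% of all probe sets had opposite directions. All 4 signals were above the array median. The summed signals of macrophage and of adipocyte markers were also higher with myoblasts in each zone. The 6 measured macrophage and monocyte markers summed to 3382 and 4581 units with myoblasts against 2953 and 3223 units in control, 4 of the 6 (border) and 5 (infarct) being above control. The 3 measured adipocyte markers summed to 5627 and 7701 units against 1865 and 1743 units, 2 of the 3 (border) and 1 (infarct) being above control. FABP4 made up nearly all of this sum, at 5490 and 7632 units against 1727 and 1529 units, while ADIPOQ was lower with myoblasts in each zone and LEP in the infarct zone. The part of these markers in the INHBA values was not tested.

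Among the receptors, TGFBR1 had 1 of its 3 probe sets above the array median on every array. TGFBR1 is the type I receptor kinase that passes the signal of all 3 TGF-β ligands to SMADs. TGFBR1 a gave 1773 and 1245 units with myoblasts against 1225 and 1075 units in control (border and infarct zone). The highest signal stood on the myoblast border array and the other 3 lay close together, with ratios of 1.45 and 1.16. The other TGFBR1 probe sets were dim and went separate ways. TGFBR1 b gave 39.1 and 31.9 units against 37.9 and 68.2 units, ratios of 1.03 and 0.469, and TGFBR1 c gave 9.19 and 25.6 units against 11.4 and 15.1 units, ratios of 0.806 and 1.69. With signals raised to at least the 25th percentile of their array, the log2 ratio of TGFBR1 c in the infarct zone was -0.02 in place of 0.76.

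TGFBR3 (betaglycan), the co-receptor that presents TGFB2 to the signalling receptors, had the largest ratio of the 13 probe sets, but at signals far below the array median. Its probe set gave 60.7 and 38.9 units with myoblasts against 16.4 and 32.5 units in control. The border zone ratio was 3.70 and the infarct zone ratio 1.20. The border zone ratio rests on the low signal of 16.4 units on the control border array. With all signals raised to at least the 25th percentile of their array (34.7 to 37.8 units), the log2 ratio in the border zone was 0.74 in place of 1.89, under 2-fold.

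**Figure D3:**
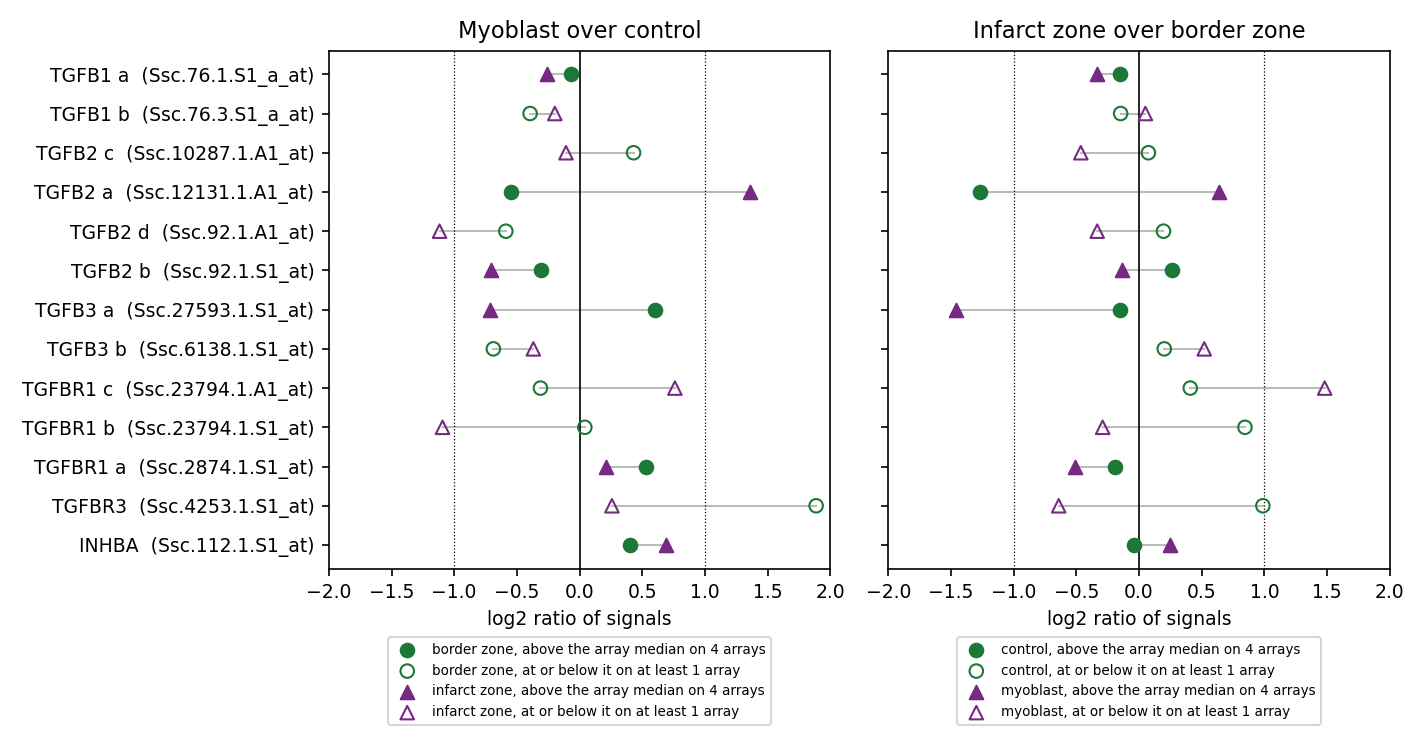
Ratios of signals on the log2 scale (x axis) of each of the 13 probe sets (y axis) for myoblast over control in each zone (left) and for infarct over border zone in each treatment (right), with dotted lines at 2-fold, filled symbols for probe sets above the array median on all 4 arrays and open symbols for the others. TGFB3 a lies at 0.60 (border) and -0.71 (infarct), and TGFB2 a at -0.55 and 1.36.

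The ratios of infarct over border zone rest on the same 4 arrays as those given so far. Between the zones of control hearts, most TGF-β genes of high signal differed little. The bright TGFB3 and TGFBR1 probe sets had ratios of infarct over border of 0.901 and 0.877, INHBA had 0.972, and both TGFB1 probe sets were close to 0.90 (0.901 and 0.903). Of the 13 probe sets, 0 were past 2-fold on the higher side and 1 on the lower side in the infarct zone of control, where 17.2% of all probe sets were past 2-fold (8.95% higher and 8.25% lower). That one was TGFB2 a, with 592 units in the border zone and 246 units in the infarct zone, a ratio of 0.415. At its brightness (128 to 512 units) 1.14% of all probe sets were past 2-fold between these arrays. The other TGFB2 probe sets had ratios of 1.05, 1.14 and 1.20, so 3 of the 4 lay above 1.

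After myoblast transplantation the zones lay further apart for TGFB3 a. This probe set had 2073 units in the border zone and 753 units in the infarct zone, a ratio of 0.363, and at its brightness (512 to 2048 units) 2.16% of all probe sets were past 2-fold between the myoblast arrays. TGFB3 b went the other way, with ratios of infarct over border of 1.15 in control and 1.43 with myoblasts. The bright TGFBR1 probe set had a ratio of 0.702 and INHBA had 1.19. The TGFB1 probe sets had ratios of 0.792 and 1.04. TGFB2 a had a ratio of 1.55, and the other 3 TGFB2 probe sets had 0.725, 0.793 and 0.911. Of the 13 probe sets, 1 was past 2-fold on the higher side and 1, TGFB3 a, on the lower side in the infarct zone, where 18.0% of all probe sets were (9.77% higher and 8.18% lower). The higher one was TGFBR1 c at 9.19 units in the border zone and 25.6 units in the infarct zone. The ratio of TGFB3 a between the zones was thus below 1 in both treatments and further from 1 with myoblasts, by -1.31 on the log2 scale. This difference has no replicate check.

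Averaged over the zones, TGFBR3 was again the one member past 2-fold, at 2.10, where 15.5% of all probe sets were. Taking the zones as the spread, limma with treatment and zone in the model called 0 of the 24123 probe sets at an adjusted p of 0.05, with 2125 (8.81%) at an unadjusted p under that value and none of the 13 among them. With treatment alone in the model it again called 0, with 2469 (10.2%) at an unadjusted p under that value. Of the 13, only TGFB2 d was among these (limma, adjusted p = 0.449). Zones of the same treatment may come from the same hearts, so these p-values do not cover the spread between minipigs.

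Of 107 other genes of the pathway listed by role, 58 were measured, each read by its brightest probe set. In the border zone 8 were 2-fold or more higher with myoblasts and 2 lower, against 6.37% and 5.71% of the 6765 genes of the array read in the same way. In the infarct zone 7 were higher and 4 lower (6.44% and 5.69% of genes). The median log2 ratio of the list was 0.21 and 0.10, against 0.02 and 0.00 over all genes. Over the 39 genes of the list above the array median on every array, 5 were higher and 0 lower in the border zone, and 5 higher and 1 lower in the infarct zone, where 1.78% and 1.38%, and 1.71% and 1.23%, of all such genes were. Some of these genes were known from earlier results of these arrays when the list was made, so their number is a description. For infarct over border, 3 were higher and 1 lower in control (4.86% and 4.11% of all genes), and 2 were higher and 6 lower with myoblasts (5.40% and 4.52% of all genes). Those lower in the infarct zone with myoblasts included BGN, PMEPA1 and FBN1, with ratios of 0.301, 0.380 and 0.399, close to the 0.363 of TGFB3 a.

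Genes that store and release the ligand differed in direction. THBS1 (thrombospondin 1), an activator of latent TGF-β, had 5 probe sets. Its brightest had 10658 and 7328 units with myoblasts against 4523 and 3419 units in control (border and infarct zone). This probe set was at least 2-fold higher in each zone. Its other probe sets above the array median on every array had ratios of 4.005 and 2.53, and of 1.68 and 2.33. Its dim probe sets had 4.54 and 14.96, and 1.15 and 1.01. Not every THBS1 probe set was thus 2-fold higher in each zone. MMP14, a membrane-bound matrix metalloproteinase that can release latent TGF-β, had 258 and 490.0 units against 223 and 145 units, ratios of 1.15 and 3.37. FBN1 (fibrillin 1), whose microfibrils anchor the latent complex, had ratios of 1.44 and 0.506, and its other probe set had 1.45 and 0.683. FBN1 thus had the same order of arrays as TGFB3 at the ends, highest in the myoblast border zone and lowest in the myoblast infarct zone. FBN1 was named for the lowest infarct zone ratio of its role, which favours such an order. ITGB3, a subunit of an integrin that binds latent TGF-β, had 0.821 and 1.35. Of the 10 genes of this class measured, 2 were past 2-fold on the higher side in the border zone (THBS1 and the dim MMP9) and 2 in the infarct zone (THBS1 and MMP14), and 0 on the lower side, where 6.37% (border) and 6.44% (infarct) of all genes were past it on the higher side and 5.71% and 5.69% on the lower side.

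Of the 7 other ligands of the superfamily measured, 1 was past 2-fold on the higher side (INHA, an inhibin subunit, 2.05) and 2 on the lower side (AMH, the anti-Müllerian hormone, 0.172, and GDF11 0.409) in the border zone. In the infarct zone 1 was higher (INHBB, an activin subunit, 2.05) and 1 lower (AMH, 0.267). All 4 of these genes were at or below the array median on at least 1 array. BMP4, a bone morphogenetic protein, was the one ligand of the 7 that lay above the array median on every array, with ratios of 1.36 and 1.20. Of the 8 other receptors measured, 0 were past 2-fold in the border zone, and 1 was higher (ACVR2B, 2.85) and 1 lower (AMHR2, 0.370) in the infarct zone. Both were at or below the array median on at least 1 array. Beside these counts of ligands and receptors, 6.37% (border) and 6.44% (infarct) of all genes were past 2-fold on the higher side. On the lower side 5.71% and 5.69% were. The endothelial co-receptor ENG (endoglin) had ratios of 1.21 and 0.822, the activin receptor ACVR1B 0.821 and 0.835, and the BMP receptor BMPR1A 1.16 and 0.645.

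Among extracellular inhibitors and SMAD partners, 0 of 13 measured genes reached 2-fold in either zone on their brightest probe set. Of all genes, 6.37% (border) and 6.44% (infarct) did so on the higher side, and 5.71% and 5.69% on the lower side. BAMBI, a decoy receptor that TGF-β signalling itself induces, had 499.7 and 484 units with myoblasts against 313 and 309 units in control, ratios of 1.60 and 1.56, while its dimmer probe set had 0.721 and 2.22. BGN (biglycan), a matrix proteoglycan that binds TGF-β, had 8665 and 2604 units against 4456 and 3738 units, ratios of 1.94 and 0.697. Like TGFB3, BGN was highest on the myoblast border array and lowest on the myoblast infarct array. BGN was named for the highest border zone ratio and the lowest infarct zone ratio of its role, which favours this order. FSTL3, an inhibitor of activin, had ratios of 0.958 and 0.806, and its dim probe set had 1.98 and 1.15 at signals of 8.08 units or less. TGIF1, a co-repressor of SMADs, had 1.46 and 1.45, and its other probe set had 2.26 and 1.63. ROCK1, a kinase downstream of RhoA, had 0.550 and 0.853. Its other probe set above the array median on every array had 0.531 and 1.08, and its dim probe set had 0.255 and 0.847.

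PMEPA1, a target of TGF-β that retains SMADs in the cytoplasm, had 3711 and 1411 units with myoblasts against 2763 and 3405 units in control, ratios of 1.34 and 0.414. Its other probe set above the array median on every array had 1.49 and 0.613. PMEPA1 was thus highest in the myoblast border zone and lowest in the myoblast infarct zone on both of these probe sets, as TGFB3 a was, and its 3 dimmer probe sets did not have this order. PMEPA1 was named for the highest border zone ratio and the lowest infarct zone ratio of its role, so the naming favours this order. The share of all genes with this order was not counted. STRAP, an inhibitor of the receptor complex, had 1.12 and 1.03.

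Most of the transcriptional targets lay above control in each zone. Of 18 transcriptional targets measured, 5 were 2-fold or more higher and 0 lower in the border zone, and 3 were higher and 1 lower in the infarct zone, beside the 6.37% higher and 5.71% lower (border) and 6.44% and 5.69% (infarct) of all genes. In each zone 14 of the 18 lay above control, where 52.0% (border) and 49.8% (infarct) of all genes did. Their median log2 ratio was 0.50 (border) and 0.42 (infarct) against 0.02 and 0.00 over all genes. As some of the listed genes were known from earlier results of these arrays, these values are a description. The genes 2-fold higher in each zone were ID3, a target of BMP and TGF-β signalling that blocks basic helix-loop-helix factors (ratios of 3.09 and 2.22), LOX, which crosslinks collagen (5.42 and 6.78), and the matrix protein TNC (7.78 and 2.30). The dimmer LOX probe set had 0.878 and 3.06 at signals of 34.4 units or less. MYC, which TGF-β represses in many cells, had 0.655 and 1.03. SPARC, a collagen-binding matrix protein, had 33057 and 26158 units with myoblasts against 32992 and 34401 units in control. The target 2-fold lower in the infarct zone was COL3A1, with ratios of 0.745 and 0.371, at or below the array median on at least 1 array. Targets below control were COL3A1, MYC, TIMP1 and CDKN2B in the border zone. In the infarct zone they were COL3A1, SPARC, POSTN and CDKN2B.

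**Figure D4:**
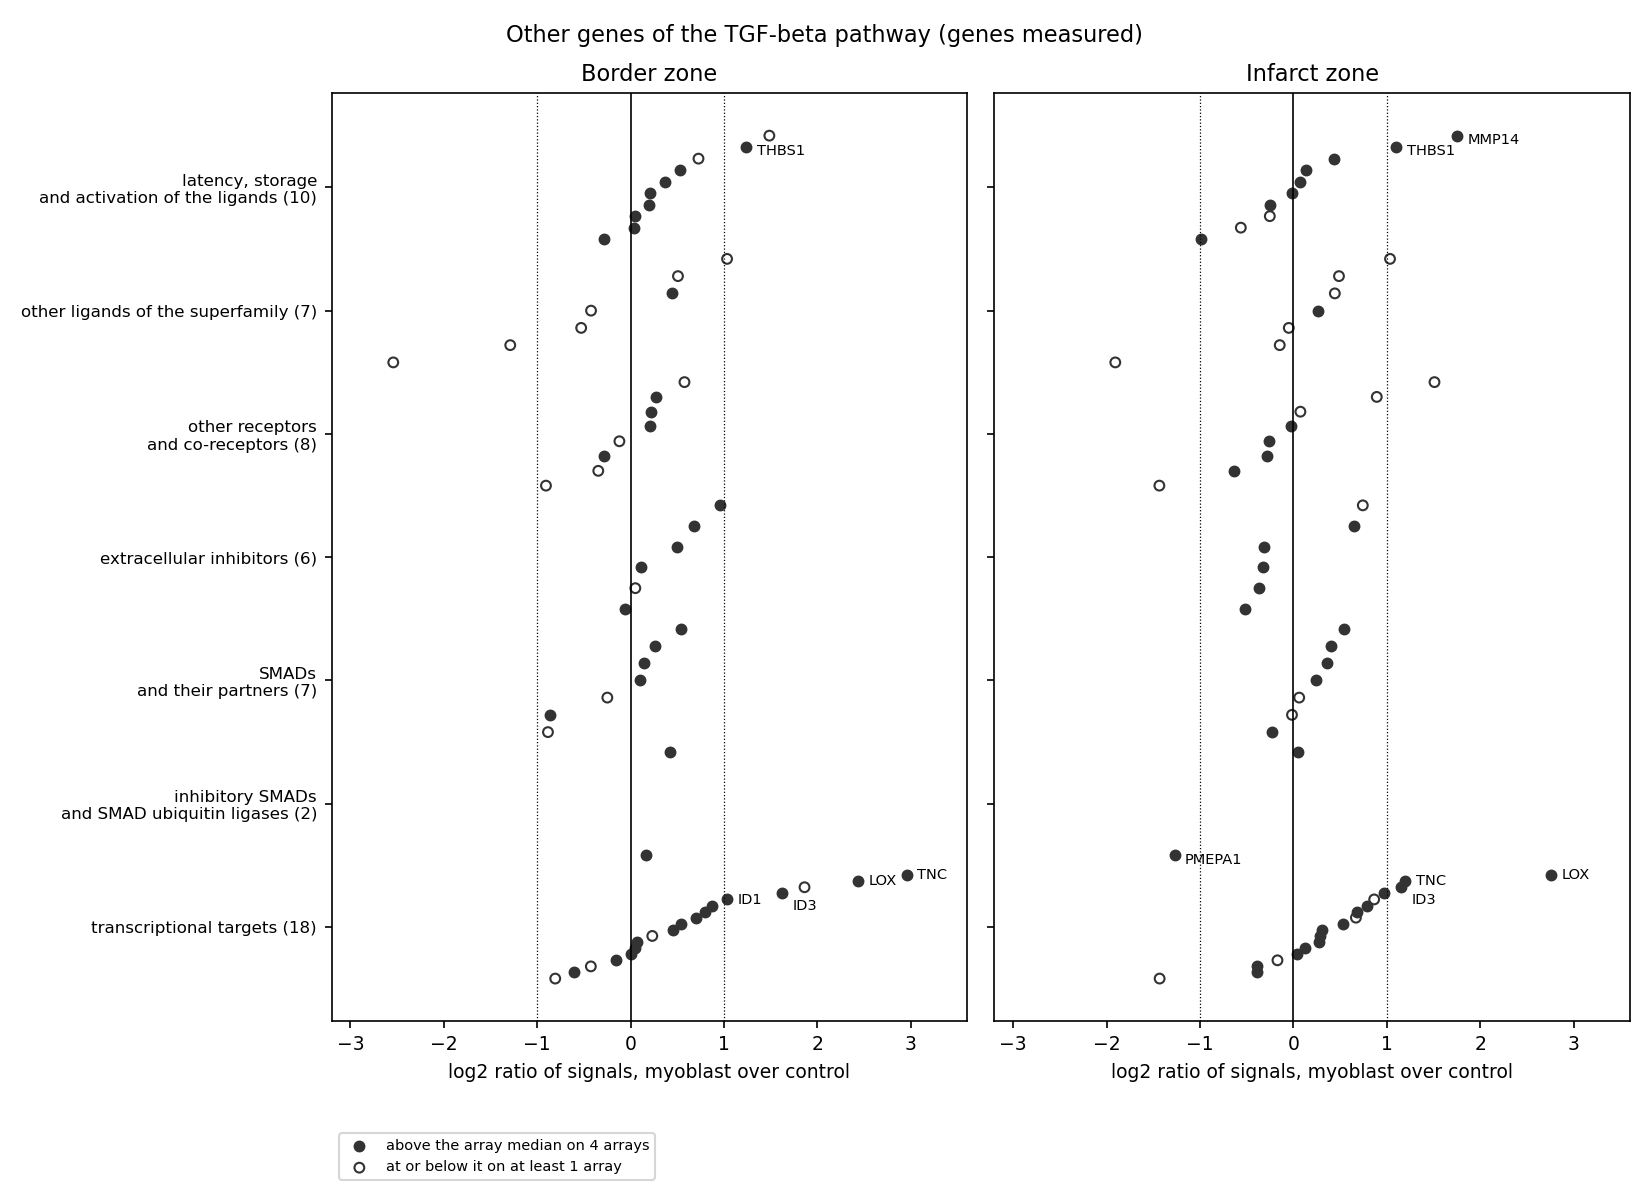
Ratios to control on the log2 scale (x axis) of 58 other TGF-β pathway genes after myoblast transplantation, with the border zone on the left and the infarct zone on the right, each gene a point in the row of its role (y axis), with dotted lines at 2-fold and names for genes past it that lie above the array median on all 4 arrays. THBS1, ID3, LOX and TNC are named in both zones, and PMEPA1 is named on the lower side in the infarct zone.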

How the data were processed

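RNA of minipig heart tissue was hybridised by the authors to Affymetrix Porcine Genome Arrays, 1 array for each zone and treatment. Normalization was by the MAS 5.0 algorithm, according to the methods. The deposited values are log2 signals made by the authors, with background subtracted and each array scaled to a common trimmed mean (500.1 units after trimming 2% at each end, checked on every array). They were used as deposited, and signals are printed in linear units. The deposited values hold no detection calls and no probe-level data, and the number of arrays limits the precision.

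Gene symbols came from the annotation of the array platform, which gives 1 symbol to 10099 probe sets, several to 198 and none to 13826. All 13 probe sets of the members carry the same symbol in the RefSeq gene table by gene ID. Log2 signals were subtracted within each zone (myoblast minus control) and within each treatment (infarct minus border), with no test, and counted at 2-fold, the threshold of the study. Signal classes were set at 32, 128, 512 and 2048 units of geometric mean signal. Other pathway genes were named as the highest and lowest ratio of each role in each zone, and those 2-fold the same way in both zones, among genes above the array median on every array. COMP, SPP1, COL2A1, FABP4, ADIPOQ, LEP, MMP9, INHA, INHBB, AMH and GDF11 were singled out after their values were seen. The same holds for ACVR2B, AMHR2, COL3A1, TIMP1, CDKN2B and POSTN among the pathway genes. Nearest patterns were ranked by Euclidean distance of centred log2 signals over the 4 arrays. The members, gene lists and markers were chosen with earlier results of these data known. Alternatives were array medians set equal, quantile normalization, signals raised to the median or the 25th percentile of their array, thresholds of 1.5-fold and 4-fold, the brightest or the mean probe set of each gene, and limma 3.58.1 in R 4.3.3 over all probe sets with Benjamini-Hochberg adjustment. Python 3.11.15 and pandas 2.3.3 were used, and the counting was tested on simulated data.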

Additional observations from a re-analysis of the deposited data

Results flagged for a closer look

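In these results the difference between myoblast and control had opposite directions in the border and infarct zones, each with 1 array, so the difference between the zones was not tested. Opposite directions were common: 39.5% of all probe sets had them, and 5 of the 13 probe sets described here. The log2 ratio of myoblast over control in the infarct zone minus that in the border zone was -1.31 for TGFB3 a and 1.90 for TGFB2 a. It was -0.54 for TGFB2 c, and for the dim TGFBR1 probe sets it was 1.07 for TGFBR1 c and -1.14 for TGFBR1 b. With signals raised to at least the 25th percentile of their array, the value of TGFBR1 c was 0.045. Among the other pathway genes named, it was -1.70 for PMEPA1, -1.51 for FBN1, -1.48 for BGN, -0.84 for BMPR1A, -0.56 for ENG, -0.40 for SPARC, 0.65 for MYC and 0.72 for ITGB3.

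The difference between the infarct and border zones had opposite directions in control and myoblast hearts for 8 of the 13 probe sets, against 46.1% of all probe sets, again with no test. The same quantity, read as myoblast minus control of the log2 ratio of infarct over border, was 0.20 for TGFB1 b, -0.53 and -0.39 for TGFB2 d and TGFB2 b, -1.63 for TGFBR3 and 0.29 for INHBA. The other probe sets with opposite directions here were TGFB2 c, TGFB2 a and TGFBR1 b, with the values given above.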

How the results depend on the processing

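Quantile normalization left every count of probe sets and genes within 1.5 times, and centring on array medians did so except for infarct over border in control, where 2 probe sets were past 2-fold in place of 1. Each of the 65 log2 values of single probe sets stayed within 1.5-fold under both scalings. With signals raised to at least the 25th percentile of their array, the members past 2-fold were 0 in the border zone (1 as deposited), 0 in the mean of the zones (1 as deposited, TGFBR3, where 15.5% of all probe sets were) and 1 for infarct over border with myoblasts (2 as deposited), and the pathway genes were 7 in the infarct zone (11 as deposited) and 5 for infarct over border with myoblasts (8 as deposited). With a floor at the array median, the members past 2-fold were 0, 1, 1 and 0 (border zone, infarct zone, infarct over border with myoblasts, mean of the zones), and the pathway genes were 5, 7, 0 and 5 (border zone, infarct zone, infarct over border in control and with myoblasts). The TGFB2 probe sets above 0 were then 2 in the border zone, 3 in the infarct zone, 1 for infarct over border in control and 3 with myoblasts, because a probe set with every signal at the floor takes the difference between array medians. For the same reason the infarct zone log2 ratios of TGFB2 d and TGFBR1 b turned to 0.049, and the log2 ratios of myoblast over control in the infarct zone minus the border zone of TGFBR1 b and TGFBR3 turned to 0.043.

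At 1.5-fold the members counted were 4, 7, 3, 4 and 2 (border zone, infarct zone, infarct over border in control and with myoblasts, mean of the zones), where 36.3%, 35.7%, 28.5%, 32.3% and 30.1% of all probe sets were past it, and the pathway genes 21, 21, 8 and 21, where 25.7%, 25.2%, 16.0% and 20.2% of all genes were. At 4-fold the members were 0 in every comparison and the pathway genes 3, 1, 2 and 0. Shares of the whole array were not counted at 4-fold, for raised signals or for the mean over probe sets. Those counts therefore cannot be told apart from a change over the whole array. Read by the brightest probe set of each gene, 1 member was past 2-fold in the infarct zone and 1 for infarct over border with myoblasts. Read by the mean over the probe sets of each gene, 0 members were past it in the infarct zone or between zones in either treatment, and 8 pathway genes were past it for infarct over border in control (4 as deposited). Limma called 0 of the members in both models. No paired analysis was possible because each condition has 1 array and the labels give no replicate numbers that pair them. Probe sets below the array median (7 of the 13 on at least 1 array) limit what can be read from TGFBR3, from the dim TGFBR1 and TGFB3 probe sets and from TGFB2 c and TGFB2 d. TGFB1 b, just below it on the myoblast arrays, is also among them.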
